A study of Mus musculus with 28 samples.

Results

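The comparison set 4 cultured hippocampal neurons captured by TIVA against 3 cultured hippocampal neurons drawn up with a glass pipette, 7 of the 28 libraries of the series. The members were all libraries whose source name gives single hippocampal neurons from culture, and every counted feature was used. Both groups were C57BL/6 mouse neurons that had been kept on coverslips for 7 to 9 days, and no genotype other than the strain is named. The 4 TIVA neurons were loaded with 10 µM of tag for 15 min and photolysed with a 405 nm laser at 30% power, after which the imaged field was aspirated through a wide bore and the tagged RNA was captured. The 3 pipette neurons are labelled as untreated, so the TIVA neurons differed from them in tag, saline rinses, laser light, aspiration and capture at once, and these cannot be told apart. In both groups the RNA was amplified linearly by in vitro transcription, in 3 rounds, before paired-end sequencing. The question the design poses is how far the transcripts obtained by a light-activated tag resemble those obtained by aspirating the neuron itself.

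TIVA stands for transcriptome in vivo analysis. The tag is a caged strand that enters cells, and light opens it so that it can bind the polyadenylated tails of messenger RNA in the chosen cell. The bound RNA is then pulled out of the surrounding lysate through a biotin handle on the tag. A glass pipette instead draws up the soma and what adheres to it, with no tag and no capture step.

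Each library is 1 cell, and nothing in the labels says which animal or culture it came from. Each group therefore counts as 1 sample, no test between groups was run, and differences are given by size beside the range over libraries. Reads were counted over 28661 features that carry known-gene identifiers of the UCSC browser, and 0 of the 55419 single identifiers matched an annotation table used here. No feature could be given a gene name or a role, so the labelled cell type was not checked against marker genes and no gene group was described. Only 2 identifiers in each direction are printed.

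Assigned reads numbered 9.13 to 26.2 M (M for mega) in the TIVA libraries and 9.89 to 32.9 M in the pipette libraries. Levels are counts-per-million (CPM) of assigned reads, and a feature with no read could have had up to 0.114 to 0.329 CPM by TIVA and up to 0.0912 to 0.303 CPM by pipette, taking 3 reads as the limit that a count of 0 allows. Such limits, and the intervals below, cover counting error only. Of all counted reads, 19.9% to 38.4% lay outside every feature in the TIVA libraries and 31.5% to 75.3% in the pipette libraries. Reads that could not be told between overlapping features made up 5.79% to 10.9% of counted reads by TIVA and 0.713% to 1.67% by pipette, with no overlap between the groups.

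A run of 8 features with consecutively lettered identifiers held a large share of every TIVA library. These 8 features are uc009vex.1 and its neighbours in the naming order, and they were grouped after their values had been seen. The run was extended in both directions only while the next identifier was 4-fold or more higher by TIVA. They took 36.5% of the assigned reads in TIVA 1, 60.4% in TIVA 2, 56.4% in TIVA 3 and 14.8% in TIVA 4, against 0.249% in pipette 1, 0.478% in pipette 2 and 0.0736% in pipette 3. The lowest TIVA library thus lay far above the highest pipette library, and the TIVA libraries also differed widely among themselves. In each of the 4 TIVA libraries the 6 most abundant features, by reads and not per length, were 6 of these 8. Only 1 of the 8 was among the 50 most abundant features of any pipette library.

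All 8 features of the run were higher by TIVA, which was the condition for joining it. Their mean levels exceeded the pipette means by 60.4-fold to 636-fold. The share of ambiguous reads was 10.9%, 10.4%, 8.98% and 5.79% in TIVA 1 to 4, against 0.821%, 0.713% and 1.67% in pipette 1 to 3. Both shares were higher by TIVA, but within a group their orders differed, apart from TIVA 4 being the lowest of the TIVA libraries in both. The part of the overlap between features in the size of the run was not tested. The make-up of the run differed as well. Within its reads, uc009vex.1 held 22.8%, 33.0%, 28.6% and 24.1% in TIVA 1 to 4, against 5.60%, 6.66% and 14.6% in pipette 1 to 3, so the features of the run did not differ between the groups by a common factor.

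The run set how concentrated the TIVA libraries were. It took 153, 4, 4 and 459 features to hold 50% of the assigned reads of TIVA 1 to 4, against 709, 733 and 551 features in pipette 1 to 3. The 10 most abundant features held 38.4%, 62.4%, 58.3% and 16.5% of the reads by TIVA, against 6.20%, 6.29% and 7.75% by pipette. On both measures the groups were apart, and TIVA 4 came nearest to the pipette libraries.

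**Figure D1:**
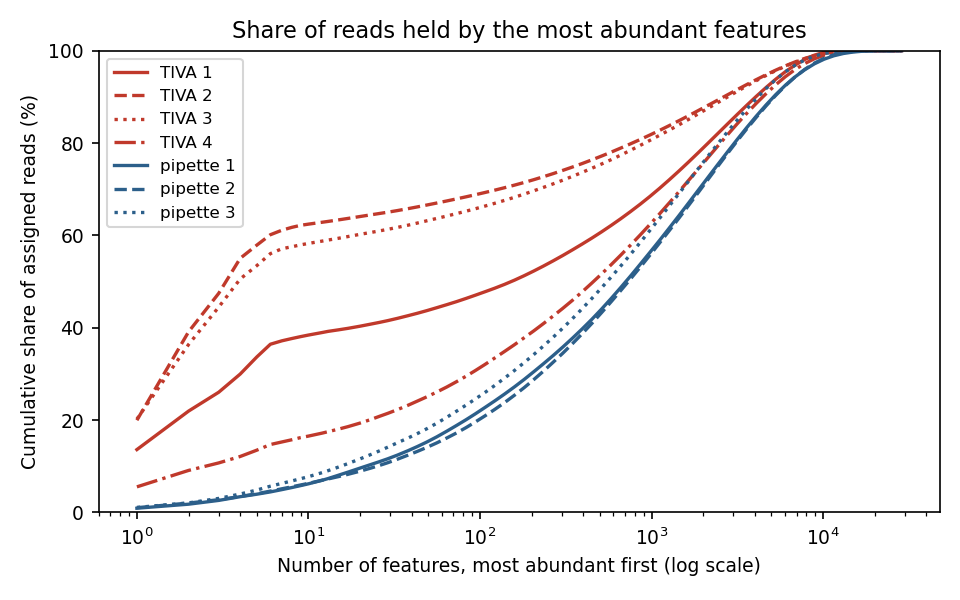
Cumulative share of assigned reads (vertical axis, percent) held by the most abundant features, counted from the most abundant on (horizontal axis, log scale), with a line for each of the 4 TIVA and 3 pipette libraries. The TIVA lines climb over their first 6 features and then run flatter, with TIVA 2 and TIVA 3 past 50% within 4 features, while the pipette lines reach 50% only after 551 to 733 features.

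Without the 8 features, in an alternative chosen after seeing the data, the concentration of the 2 groups was much alike. The 8 were picked as higher by TIVA and include the 6 most abundant features of each TIVA library. A fall in TIVA concentration was thus set by the choice, and only its size is a description. The 50 most abundant of the remaining features held 12.5%, 16.8%, 16.9% and 13.3% of the remaining reads in TIVA 1 to 4, against 15.5%, 14.3% and 18.3% in pipette 1 to 3. These ranges overlapped, whereas the share with all features was 25.2% to 66.6% by TIVA and 14.2% to 18.3% by pipette. It then took 724 to 958 features to hold 50% of the reads by TIVA, against 550 to 736 by pipette. By that measure the order of the group medians turned round, and the ranges overlapped.

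Levels of the features were compared as the mean of log2(CPM + 10) over the TIVA libraries minus that over the pipette libraries. Features entered where their level averaged 5 CPM or more over the 7 libraries, which 10493 did, and a difference of 2 or more in size, which is 4-fold on this scale, was counted. The added 10 CPM understates the difference of low features. By TIVA 53 features were higher (0.505% of those compared) and 315 were lower (3.00%). Their libraries lay apart, with every TIVA library on the same side of every pipette library, for 52 of the 53 and 310 of the 315. At any size of difference, 441 features had their ranges apart and higher by TIVA (4.20%) and 2741 had them apart and lower (26.1%). The features just inside and just outside the limit differed by 2.01 and 1.99 on the higher side, and by −2.001 and −1.9998 on the lower side.

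**Figure D2:**
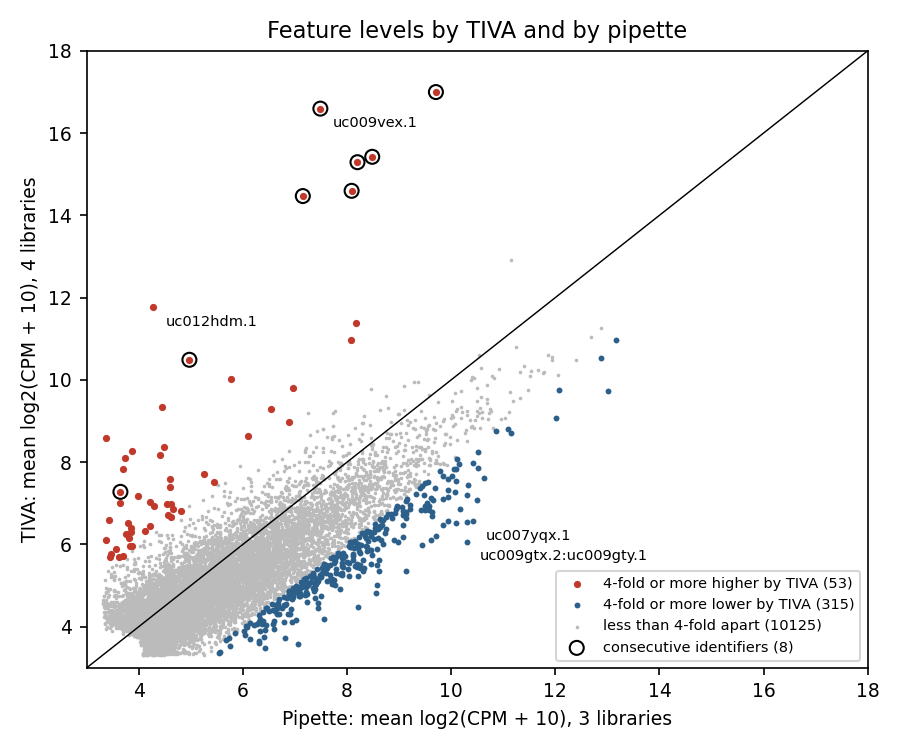
Mean log2(CPM + 10) over 4 TIVA libraries (vertical axis) against that over 3 pipette libraries (horizontal axis) for 10493 features, with the diagonal of equal level. Coloured points are the 53 features 4-fold or more higher and the 315 features 4-fold or more lower by TIVA, rings mark the 8 consecutive identifiers, and the bulk of the points lies a little below the diagonal.

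This excess of lower features depended on the total that the reads were scaled to. The median difference over the compared features was −0.45, so a typical feature had a lower share of the TIVA reads. With the 8 features left out of the table and of the totals, the median was 0.12 over 11263 features. By that scaling 163 features were higher (1.45%) and 67 were lower (0.595%; 138 lower without pipette 3), so features higher by TIVA made up 70.9% of those past the limit in place of 14.4%. Ranges were then apart for 1758 features higher by TIVA (15.6%) and 1151 lower (10.2%), and for 154 of the 163 and 64 of the 67 past the limit. Scaling by edgeR's TMM factors gave 107 higher and 76 lower of 10385 features with a median of 0.00. Scaling by DESeq2's size factors gave 104 and 79 of 10389 with a median of −0.01. The 45 higher features outside the run held little of the reads, since the run accounted for 95.7% of the summed excess in CPM of all 53.

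**Figure D3:**
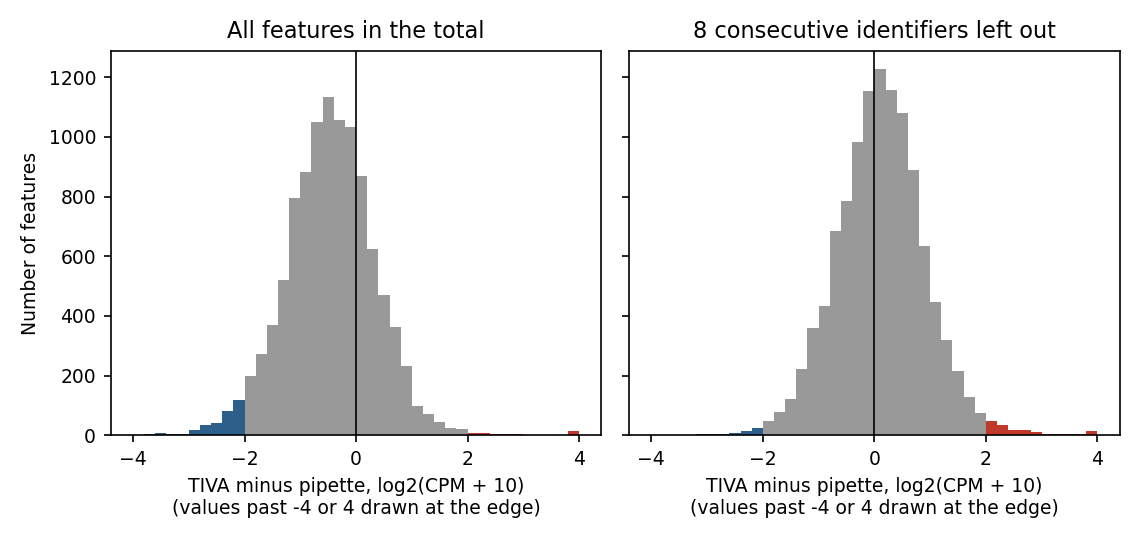
Number of features (vertical axis) by TIVA minus pipette difference in mean log2(CPM + 10) (horizontal axis), with all features in the total on the left and the 8 consecutive identifiers left out on the right. Colour marks differences of 4-fold or more, and the centre of the distribution moves from −0.45 on the left to 0.12 on the right.

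The difference also varied with the level of the features. The level was the middle of the 2 group means on the log scale, and features below 5 CPM by it are not listed. The median difference was −0.19 for 2035 features at 5 to 10 CPM and −0.43 for 5143 features at 10 to 50 CPM. It was −0.75 for 2347 features at 50 to 200 CPM, −1.02 for 564 features at 200 to 1000 CPM and −1.28 for 50 features at 1000 CPM or more. These class medians became lower with level, but single features did not all follow. At 1000 CPM or more, 6 of the 50 were 4-fold or more higher by TIVA, all 6 of them in the run, and 5 were lower. With the run left out, 2 of 79 features at that level were higher and 2 were lower. Without the run, the same 5 classes had medians of 0.15, 0.16, 0.06, −0.16 and −0.49, so the order over the upper classes was still there although the lower classes lay above 0. The smaller differences of low features are partly set by the added 10 CPM.

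Features whose names join several isoform identifiers differed slightly from the others. The median difference was −0.56 for 3295 features with a single identifier, −0.43 for 5698 with 2 to 4, −0.31 for 1396 with 5 to 9 and −0.39 for 104 with 10 or more. Of the single identifiers, 4.04% were 4-fold or more lower by TIVA, against 2.74%, 1.72% and 1.92% of the classes with more. Features with 10 or more identifiers thus lay 0.17 above those with 1, a distance smaller than its spread over the 4 TIVA libraries (SD 0.22), and it was −0.06 without pipette 3.

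Among features that met the naming rule given below, uc009vex.1 was the furthest higher by TIVA in mean log2(CPM + 10). Larger ratios occurred, since the first 10 higher features had TIVA means of 414 CPM or more and a lowest pipette mean of 0.290 CPM. The feature uc009vex.1 is a member of the run and among the 2 most abundant features of each TIVA library. It had 83324, 199719, 161360 and 35562 CPM in TIVA 1 to 4, against 139, 319 and 108 CPM in pipette 1 to 3. The TIVA libraries spanned a range of several fold, and the lowest of them was still far above all 3 pipette libraries. The means were 119991 CPM by TIVA and 189 CPM by pipette, a ratio of 636 and a log2 difference of 9.11. Summed over libraries it had 10639982 reads by TIVA, or 138818 CPM (95% Poisson interval 138735 to 138902), against 8528 reads by pipette, or 158 CPM (154 to 161).

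The next was uc012hdm.1, which is not one of the 8 consecutive identifiers. It had 4132, 6203, 4253 and 1323 CPM in TIVA 1 to 4, against 6.97, 18.8 and 4.80 CPM in pipette 1 to 3. As with the run, TIVA 4 was the lowest of its group and pipette 2 the highest of its own. The means were 3977 CPM by TIVA and 10.2 CPM by pipette, a ratio of 391 and a log2 difference of 7.49. The summed counts were 347903 reads by TIVA, or 4539 CPM (4524 to 4554), against 439 reads by pipette, or 8.11 CPM (7.37 to 8.91).

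On the lower side, the first feature in the same order was uc009gtx.2:uc009gty.1, a name that joins 2 identifiers. Here too larger ratios occurred. The first 50 lower features had a smallest TIVA mean of 1.22 CPM, with all pipette means at 81.2 CPM or more. The feature uc009gtx.2:uc009gty.1 had 31.8, 55.0, 59.8 and 95.9 CPM in TIVA 1 to 4, against 1344, 2270 and 644 CPM in pipette 1 to 3. It was found in every TIVA library and was in each of them below every pipette library. The means were 60.6 CPM by TIVA and 1419 CPM by pipette, so pipette over TIVA was 23.4, with a log2 difference of −4.24 by TIVA. The summed counts were 4219 reads by TIVA, or 55.0 CPM (53.4 to 56.7), against 60153 reads by pipette, or 1112 CPM (1103 to 1121).

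The next on that side was uc007yqx.1, with 155, 48.5, 63.1 and 105 CPM in TIVA 1 to 4, against 1618, 1305 and 1193 CPM in pipette 1 to 3. The pipette libraries were close to each other and the TIVA libraries were more spread, with no overlap. The means were 92.9 CPM by TIVA and 1372 CPM by pipette, so pipette over TIVA was 14.8, with a log2 difference of −3.85 by TIVA. Without the run in the totals the log2 differences of these 4 features were 9.96, 8.34, −3.49 and −3.08, so the fold of both lower features was smaller in size and that of both higher features larger.

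Among features that met the naming rule, 291 were higher and 2301 lower by TIVA. The first 10 of the higher ones had log2 differences of 4.89 to 9.11, 7 of them belonged to the run, and all 10 were single identifiers. The first 10 of the lower ones had log2 differences of −4.24 to −3.50, with means of 12.5 to 92.9 CPM by TIVA and 287 to 1419 CPM by pipette. These levels are in part set by the rule and are not a result. With 10 CPM added, only features well above 10 CPM in the higher group can reach differences of this size.

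The same 4 features were read out in the other groups of the series. Tissue TIVA neurons had a higher tag dose, longer loading and higher laser power than cultured TIVA neurons. In cultured cortical neurons uc009vex.1 had 22845 to 111434 CPM by TIVA (4 libraries) and 1285 to 7853 CPM by pipette (4 libraries), and uc012hdm.1 had 1579 to 4863 CPM by TIVA and 34.4 to 639 CPM by pipette. Both were again higher by TIVA with ranges apart, and the cortical pipette levels were above those of the hippocampal pipette libraries. The lower features were less even: uc009gtx.2:uc009gty.1 had 4.01 to 12.2 CPM by TIVA and 16.7 to 121 CPM by pipette, and uc007yqx.1 had 39.6 to 103 CPM by TIVA and 33.6 to 394 CPM by pipette, with overlap. In hippocampal tissue neurons the order of the first feature was opposite, at 284 to 1347 CPM by TIVA (5 libraries) and 2024 to 3409 CPM by pipette (3 libraries). There uc012hdm.1 had 3.37 to 102 CPM by TIVA and 84.6 to 148 CPM by pipette, with overlap, and both lower features overlapped between the means of collection. In bulk hippocampus (3 libraries) uc009vex.1 had 9588 to 20342 CPM and uc012hdm.1 had 880 to 1712 CPM. The lower features had 21.8 to 105 and 68.0 to 208 CPM in bulk. In cortex tissue TIVA neurons (2 libraries) uc009vex.1 had 9109 to 9260 CPM and uc012hdm.1 had 429 to 508 CPM. High levels of both higher features were thus not limited to cultured TIVA neurons.

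**Figure D4:**
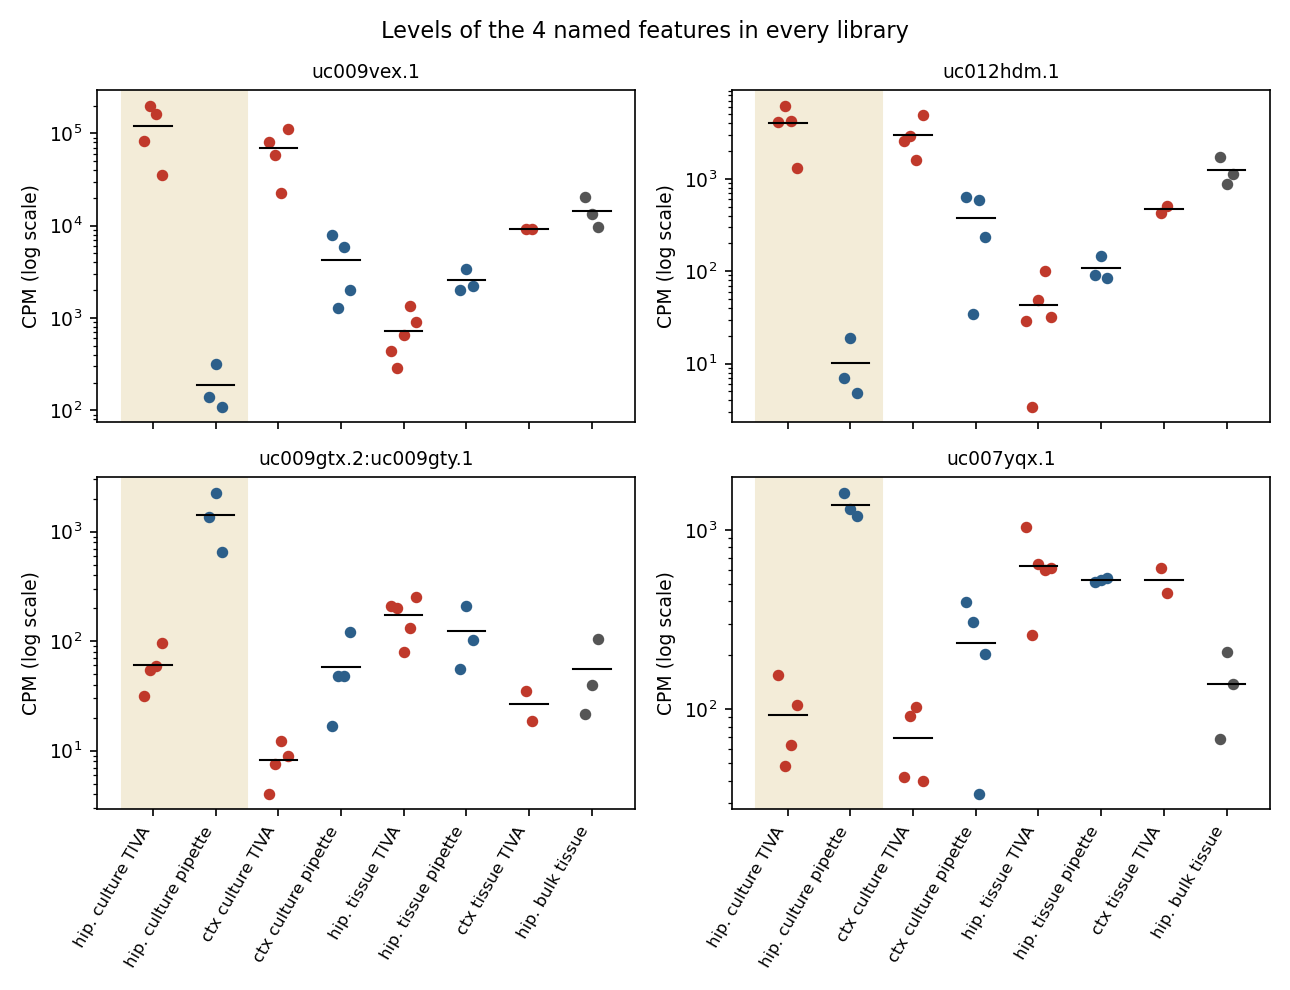
Levels in CPM (vertical axes, log scale) of 4 named features in every library of the 8 groups of the series (horizontal axis; hip. for hippocampus, ctx for cortex), with a point for each library and a bar at the group mean. The shaded columns hold the cultured hippocampal TIVA and pipette libraries, which are apart for all 4 features, and the first feature is lower by TIVA than by pipette in hippocampal tissue.

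The run as a whole had the same pattern in cultured cortical and hippocampal tissue neurons. It held a median of 31.7% of the reads (13.4% to 54.5%) in cultured cortical TIVA libraries, against 1.90% (0.827% to 5.02%) in cultured cortical pipette libraries. In hippocampal tissue its median was 0.755% (0.280% to 1.56%) by TIVA, against 2.58% (2.19% to 4.29%) by pipette. The TIVA and pipette libraries of these groups are separate from the cultured hippocampal ones, so the overlap of features past the limit could be counted. Of the 9722 features compared in both cultures, 28 were higher by TIVA in both. They were 52.8% of the hippocampal higher features, where 1.19% of all compared were higher in cortex. They were 24.1% of the cortical higher features, where 53 of the 9722 were higher in hippocampus. Lower by TIVA in both were 59 features, 19.3% of the hippocampal ones, where 1.89% of all compared were lower in cortex. These 59 were 32.1% of the cortical ones, where 306 of the 9722 were lower in hippocampus. Without the run, 41 higher features were shared, 26.3% of the hippocampal ones, where 3.04% of all compared were higher in cortex. These 41 were 12.9% of the cortical ones, where 156 of 10413 were higher in hippocampus. The 9 lower features then shared were 14.1% of the hippocampal ones, where 0.711% of all compared were lower in cortex. These 9 were 12.2% of the cortical ones, where 64 of 10413 were lower in hippocampus. Few features were shared with tissue, and the shares rest on 1 to 7 features each. In tissue 1 of 43 higher features was also higher by TIVA (2.33%, where 3.21% of all were higher in tissue) and 6 were lower. That 1 was 0.353% of the tissue ones, where 43 of 8803 were higher in culture. Of 306 lower features 7 were also lower in tissue (2.29%, where 1.33% of all were lower in tissue) and 13 were higher. These 7 were 5.98% of the tissue ones, where 306 of 8803 were lower in culture. Without the run, 6 of 125 higher features (4.80%, against 3.09% of all) and 2 of 61 lower features (3.28%, against 1.40% of all) were shared with tissue.

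Fewer features were found in the TIVA libraries at equal depth. Thinned to 9.13 M reads, the depth of the smallest library, TIVA 1 to 4 held 13314, 15869, 16363 and 17190 features with a read, against 20888, 19653 and 17118 in pipette 1 to 3. The medians of 16116 by TIVA and 19653 by pipette gave a difference of −3537 features (−2269.5 without pipette 1), and TIVA 4 held slightly more than pipette 3. At 1 M reads the counts were 11722, 13038, 13330 and 14083 by TIVA, against 16642, 15783 and 13375 by pipette, with the same overlap. Leaving the run out before thinning gave 13468, 16708, 17125 and 17182 by TIVA, against 20642, 19423 and 16940 by pipette, so TIVA 3 and TIVA 4 then both exceeded pipette 3. The number of features with a read nearly followed the share of reads outside features, which was 19.9%, 22.3%, 24.7% and 38.4% in TIVA 1 to 4 and 67.5%, 75.3% and 31.5% in pipette 1 to 3. The part of those reads in the number of features was not tested.

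At higher limits the order depended on the scaling. TIVA 1 to 4 had 7953, 6505, 6562 and 8219 features at 10 CPM or more, against 8869, 9024 and 7795 in pipette 1 to 3. With the run left out they had 9082, 9388, 9198 and 8658, against 8862, 9042 and 7797, so that 3 of the 4 TIVA libraries exceeded every pipette library. At 50 CPM or more the counts were 3150, 1703, 1852 and 3498 by TIVA, against 3870, 3896 and 3609 by pipette. All TIVA libraries were then below all pipette libraries, and with the run left out all were above them, at 4539, 4130, 4025 and 3914 against 3874, 3906 and 3605.

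Few features were present in all libraries of a group and absent from the other. At the common depth 11837 features had a read in all 7 libraries. Of 12291 features with a read in all 4 TIVA libraries, 22 had no read in any pipette library. Of 15701 features with a read in all 3 pipette libraries, 511 had no read in any TIVA library. The counts of 22 and 511 cannot be compared directly, because the groups differ in size and the run took part of the TIVA depth. They were not taken with the run left out. At 1 CPM or more in every library of a group, 4 features had no read by pipette and 7 had no read by TIVA, and at 10 CPM or more there were 0 of either kind. Of 1346 features at 50 CPM or more in every TIVA library, 8 were below 10 CPM in all pipette libraries, and of 2805 at 50 CPM or more in every pipette library, 11 were below 10 CPM in all TIVA libraries. At these limits features were thus seldom abundant in every neuron of a group and near 0 in the other.

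The most abundant features were partly shared. Of the 50 most abundant features, 20 were common to all 4 TIVA libraries and 27 to all 3 pipette libraries, and 10 were common to all 7. The 10 shared features had a median level of 1921 CPM by TIVA and 4209 CPM by pipette. Outside the run, 14 features were in the first 50 of every TIVA library, and 3 of these were in the first 50 of no pipette library. In the other direction, 4 features were in the first 50 of every pipette library and of no TIVA library.

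By the median over pairs, libraries of a group resembled each other more than libraries of different groups. Pearson's r of log2(CPM + 10) across features, which are not independent replicates, had a median of 0.828 among the 6 TIVA pairs (0.782 to 0.962), 0.883 among the 3 pipette pairs (0.835 to 0.911) and 0.767 over the 12 pairs of a TIVA and a pipette library (0.585 to 0.813). TIVA 1 stood apart, with 0.585 to 0.640 against the pipette libraries where the other TIVA libraries had 0.715 to 0.813. Without TIVA 1 the medians were 0.880 within TIVA and 0.774 between the groups. TIVA 2 and TIVA 3 were the most alike, at 0.962, with 0 features 4-fold apart. The chi-square per degree of freedom of their counts was 37.6, the lowest of all pairs. That value is set against counting noise alone, which amplification exceeds, so it does not show that they came from different cells, and they are separate here because the labels list them as separate samples.

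The medians over pairs had the same order for differences in level, but single pairs did not all follow it. TIVA 2 with TIVA 4 had 5.12% of features 4-fold or more apart, above the 4.63% of TIVA 4 with pipette 1. A median of 2.57% of features were 4-fold or more apart within TIVA (0% to 5.12%), 1.76% within pipette (1.19% to 3.57%) and 8.38% between the groups (4.63% to 13.0%). With the run left out these medians were 2.21%, 1.66% and 4.83%, but single pairs moved in both directions. The share of TIVA 2 with TIVA 4 was 1.5% without the run and 5.12% with it, and that of TIVA 3 with TIVA 4 was 0.772% and 2.47%. TIVA 1 with TIVA 4 was at 5.24% without the run and 3.98% with it, and the 3 pairs of TIVA 1 with pipette libraries were at 10.6% to 13.4% without it and 10.2% to 13.0% with it. The median absolute log2 difference was 0.61 within TIVA, 0.40 within pipette and 0.74 between the groups. The median within TIVA was 0.21 above that within pipette, and 0.09 above it without pipette 1, where a single pipette pair at 0.53 remained. With the run left out, the medians were 0.58 within TIVA, 0.39 within pipette and 0.60 between the groups, so TIVA pairs then came close to pairs between the groups.

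**Figure D5:**
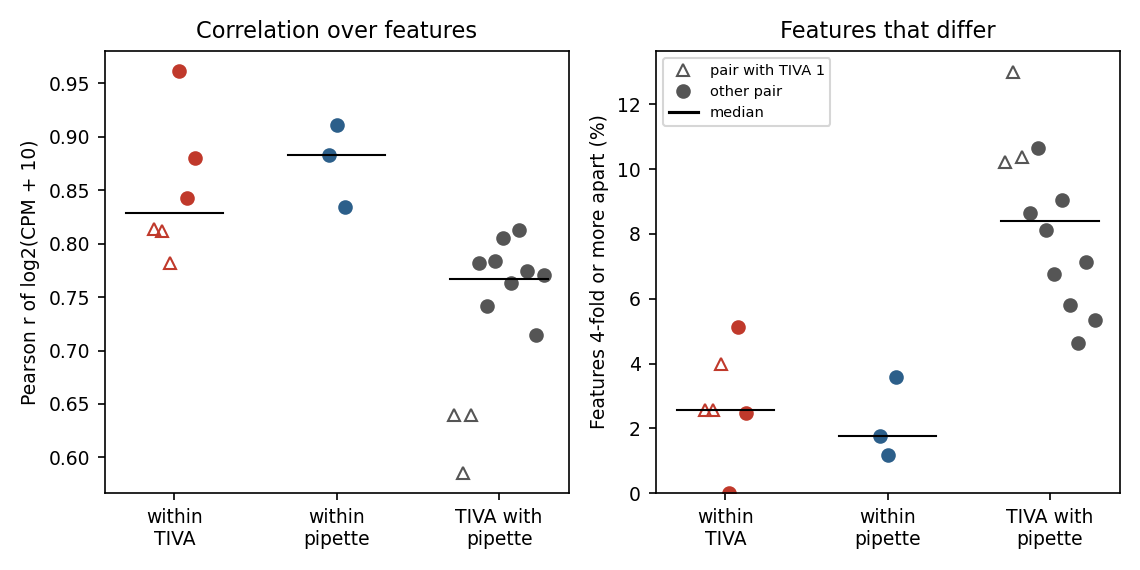
Pearson's r of log2(CPM + 10) over features (left, vertical axis) and percentage of features 4-fold or more apart (right, vertical axis) for each pair of libraries, by kind of pair (horizontal axis), with a bar at the median. Triangles are pairs with TIVA 1, whose correlations with pipette libraries of 0.585 to 0.640 lie below all other pairs.

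Each TIVA library was also set alone against the pipette mean. The median difference was −0.36, −0.73, −0.66 and −0.14 for TIVA 1 to 4, and the 2 libraries with the largest run shares, TIVA 2 and TIVA 3, were the lowest. With the run left out the medians were 0.09, 0.12, 0.11 and 0.03. Of the 11263 features compared, those 4-fold or more higher than the pipette mean then numbered 751, 228, 149 and 244. The features lower numbered 338, 71, 61 and 153. TIVA 1 thus differed from the pipette neurons at more features than the other 3 TIVA libraries in both directions.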

How the data were processed

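Each library came as a file of read counts per feature, whole numbers as the authors deposited them. The mouse build mm9, HTSeq (no version) and CASAVA 1.8.1 are named in the submitters' processing notes. Strand handling, overlap mode and aligner were not given in the sources used here. Overlapping, antisense and near-identical features may therefore share reads. The 5 HTSeq summary lines name no feature and were left out of totals. Libraries were grouped by source name and numbered in the order of the records, which pairs none of them. Because no batch is labelled, batch and group cannot be told apart.

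Counts were scaled to CPM over assigned reads. Named features needed a mean of 20 CPM in the higher group, at least 10 reads in each of its libraries and ranges apart, and were ordered by how far the group means of log2(CPM + 10) lay apart. With no gene symbols, the first 2 in each direction are named. The marker lists set up for symbols could not be used. The libraries, lists and rules were chosen with earlier results of these data known. Thinning used a fixed seed, intervals were exact Poisson at 95%, and the calculation was tested on simulated data. Python 3.11.15, numpy 2.4.6, pandas 2.3.3, scipy 1.17.1, edgeR 4.0.16 (TMM factors) and DESeq2 1.42.0 (size factors) were used, the last 2 for scaling alone. Alternatives were other scalings, pseudocounts, limits and filters, summed counts, leaving out each library and, added after seeing the data, leaving out the 8 consecutive identifiers.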

Additional observations from a re-analysis of the deposited data

Results flagged for a closer look

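The TIVA minus pipette difference of uc009vex.1 was −1.96 on the log2(CPM + 10) scale in hippocampal tissue neurons, opposite in sign to the 9.11 of cultured hippocampal neurons. All 5 tissue TIVA neurons lay below all 3 tissue pipette neurons, whereas all 4 cultured TIVA neurons lay above all 3 cultured pipette neurons. The difference between tissue and culture was not tested. Tag dose, loading time and laser power were all higher for tissue TIVA neurons than the 10 µM, 15 min and 30% of culture. Tissue neurons are labelled by the age of the animal and cultured neurons by days in culture, so age cannot be compared between them. Dixon's gap test marked no TIVA library in 12 values, namely assigned, no-feature and ambiguous reads, the shares of the 50 most abundant features and of the run, features detected and at 10 and 50 CPM, and the levels of the 4 named features. Correlations and counts of features 4-fold apart, by which TIVA 1 stood apart, were not among these values, and with 4 libraries the test marks only extreme gaps. Groups of 3 were not examined.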

How the results depend on the processing

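The 4 named features kept their direction under every alternative tried for them. They were chosen for large differences with ranges apart, so leaving out a library could not have reversed them. The direction of the correlation gap held under every alternative tried for it. That of the features detected by number of reads did so too, but at 10 CPM or more the medians were 9140 by TIVA and 8862 by pipette once the 8 consecutive identifiers were left out, the opposite order. With all features, 53 were higher and 315 lower by TIVA, with a median log2 difference of −0.45. TMM gave 107, 76 and 0.00222 over 10385 features, and DESeq2 size factors 104, 79 and −0.00909 over 10389. Totals without the 50 most abundant features gave 199, 85 and 0.0956 over 11673 features. Totals and table without the 8 consecutive identifiers gave 163, 67 and 0.116 over 11263 features. There the difference in the share of the 50 most abundant features was −0.361 in place of 38.1 percentage points. Of the 10493 features of the main scaling, 236 and 1128 were counted with a pseudocount of 1 CPM and 20 and 69 with 50 CPM. Both counts were 310 and 2472 at 2-fold, and 21 and 23 at 8-fold. With summed counts 81 features were higher. The median was −0.0723 with no filter. The distance of features with 10 or more identifiers from single ones, 0.17, was −0.258 with no filter and 0.453 at a mean of 20 CPM or more. The typical difference between 2 libraries was 0.21 larger within TIVA than within pipette, 0.41 with a pseudocount of 1 CPM and −0.0409 with no filter. The gap between correlations within and between groups, 0.0886, was 0.158 at 20 CPM or more. The difference in features detected, −3537, was −1611.5 at 10 CPM or more without thinning. The cause of these shifts was not tested.

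Leaving out each library in turn gave 43 to 74 higher and 288 to 470 lower features, medians of −0.58 to −0.36, −4154.5 (without pipette 3) to −2269.5 (without pipette 1) features detected, 0.0917 (without pipette 1) to 0.248 for the typical difference, and identifier distances of −0.0577 (without pipette 3) to 0.264. Without the 8 identifiers it gave 130 to 204 higher and 56 to 138 lower, the highest without pipette 3. No paired analysis was possible because the labels give no replicate numbers. With 1 cell a library and no culture named, differences between cells, cultures and library preparation cannot be told apart.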
